A study of Mus musculus with 7 samples.

Results

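The sarcomeric myosin heavy chains are the motor proteins of striated muscle, and 8 of their genes, Myh1, Myh2, Myh3, Myh4, Myh6, Myh7, Myh8 and Myh13, were followed here in tumors formed by mouse fibroblasts. They were taken by gene symbol from the 46603 genes counted in 7 RNA-seq libraries. The set was chosen from its levels in these same libraries, which were known to be high in one tumor and near 0 in the other, so that difference is described without a test. Mouse embryonic fibroblasts (MEFs) of the line ATCC CRL-2752 lost nuclear myosin 1 (NM1), an isoform of Myo1c, through CRISPR/Cas9 and are called KO. KO + NM1 cells were made from them with a lentivirus carrying NM1 with HA and V5 tags, selected with neomycin and tested as single clones, so both groups share the deletion. Cells were injected under the skin of the right flank of female Balb/c nude mice aged 16 weeks, with 5 mice per group, and growth was followed for up to 30 days. These are the terms of the labels, apart from the strain, while the study's methods give a shorter time and its text also names the mammary pads as the site. As the labels have it, a single tumor of each kind was cut into 4 pieces, and RNA was sequenced from 3 KO and 4 KO + NM1 pieces. The pieces are not separate mice, so every SD and test measures the spread between pieces, and a difference between the genotypes cannot be told apart from a difference between these tumors or their surroundings.

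Each myosin heavy chain combines a motor head, which binds actin and splits ATP, with a long tail that packs into the thick filament of the sarcomere. A fibre is classed by the chain it makes. Myh4 encodes the IIb chain of the fastest glycolytic fibres, Myh1 the IIx chain and Myh2 the IIa chain of fast oxidative fibres. Myh7 encodes the slow and cardiac beta chain and Myh6 the cardiac alpha chain. Myh3 and Myh8 encode the embryonic and perinatal chains, made during development and regeneration, and Myh13 encodes the chain known from the muscles that move the eye.

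The genes lie in 2 clusters of the GRCm38 build in the GENCODE M21 annotation. On the plus strand of chromosome 11 stand Myh3 (ENSMUSG00000020908, 67078300 to 67102291), Myh2 (ENSMUSG00000033196, 67171027 to 67197517), Myh1 (ENSMUSG00000056328, 67200052 to 67224575), Myh4 (ENSMUSG00000057003, 67238029 to 67260446), Myh8 (ENSMUSG00000055775, 67277124 to 67308634) and Myh13 (ENSMUSG00000060180, 67321658 to 67371586). On the minus strand of chromosome 14 stand Myh6 (ENSMUSG00000040752, 54941921 to 54966927) and Myh7 (ENSMUSG00000053093, 54970684 to 54994626). The promoters of the 3 fast chains and of Myh8 are shown because these neighbours held most of the reads and share stretches of sequence. Each line gives the 250 bases before the RefSeq start site on the plus strand of GRCm38.p6, 5′ to 3′, with the shared stretches in capitals, at chr11:67237562-67237811 for Myh4, chr11:67199852-67200101 for Myh1, chr11:67170777-67171026 for Myh2 and chr11:67276874-67277123 for Myh8.
Myh4: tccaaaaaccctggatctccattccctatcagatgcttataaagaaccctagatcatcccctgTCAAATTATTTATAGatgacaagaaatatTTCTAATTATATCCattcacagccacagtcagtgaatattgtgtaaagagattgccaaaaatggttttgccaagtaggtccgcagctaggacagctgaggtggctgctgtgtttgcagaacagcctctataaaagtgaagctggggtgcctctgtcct
Myh1: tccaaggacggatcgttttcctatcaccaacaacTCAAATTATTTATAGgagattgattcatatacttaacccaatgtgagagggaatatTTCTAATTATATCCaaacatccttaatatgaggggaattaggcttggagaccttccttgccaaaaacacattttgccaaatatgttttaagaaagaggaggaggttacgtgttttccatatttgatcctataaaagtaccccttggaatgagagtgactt
Myh2: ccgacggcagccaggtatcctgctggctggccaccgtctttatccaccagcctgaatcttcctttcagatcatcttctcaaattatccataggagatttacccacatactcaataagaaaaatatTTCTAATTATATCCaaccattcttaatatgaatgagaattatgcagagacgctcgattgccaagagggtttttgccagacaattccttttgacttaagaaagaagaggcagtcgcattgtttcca
Myh8: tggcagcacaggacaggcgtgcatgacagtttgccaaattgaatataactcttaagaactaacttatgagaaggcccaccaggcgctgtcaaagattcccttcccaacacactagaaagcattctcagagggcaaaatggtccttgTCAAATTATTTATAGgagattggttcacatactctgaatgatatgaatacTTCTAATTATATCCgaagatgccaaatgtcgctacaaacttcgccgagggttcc

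The 14 bases TTCTAATTATATCC stood in all 4 promoters, starting 158 bases before the start of Myh4, 160 before Myh1, 125 before Myh2 and 54 before Myh8. Of 32851 RefSeq promoter windows, 4 held this stretch (0.0122%), those of these 4 genes. The 15 bases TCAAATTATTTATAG stood in Myh4, Myh1 and Myh8, starting 187, 216 and 104 bases before their starts, and in no other window. The stretches were found by comparing the 4 promoters, and they describe related sequence, whose binding by any factor was not tested. The motif CANNTG, the letters read by the MyoD family, was found in the windows of 6 of the 8 genes and in 72.3% of all windows. CTANNNNTA, the letters of a MEF2 site, was found in 6 of the 8 genes and in 21.0% of all windows. The 14-base and 15-base stretches both hold these letters, the latter on the other strand. Those matches are therefore the same bases as the stretches and not a separate result. CC and GG with 6 bases between them were found in 6 of the 8 genes and in 73.3% of all windows. The motifs were searched on both strands of windows from 250 bases before to 50 bases after the start. Myh4 held 3 CANNTG and 4 CTANNNNTA there. Myh1 and Myh2 held no CANNTG, and Myh6 and Myh7 held no CTANNNNTA.

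Counted reads ranged from 24088309 to 28326568 per piece. Levels are given as CPM, read counts scaled to library size with TMM, and 3 reads, the limit that a count of 0 allows, correspond to 0.0991 to 0.148 CPM. Intervals and limits cover counting error only, and those of ratios cover only that of the KO + NM1 count. Myo1c, whose count does not separate NM1 from its other isoforms, stood at 289 to 313 CPM in the KO and 382 to 438 CPM in the KO + NM1 pieces, so no library went against its label on this gene. KO + NM1 piece 01 stood apart from the other pieces of its tumor, with a mean correlation of log2 CPM across genes of 0.858 against 0.939 to 0.944. Mitochondrially encoded genes took 1.81% to 2.14% of the reads in KO and 5.11% to 18.5% in KO + NM1 pieces. The tissue is labelled tumor only. Skeletal muscle genes were abundant in the KO pieces and adipocyte genes in the KO + NM1 pieces, and the part of host muscle or fat in the results was not tested.

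Myosin heavy chain reads were plentiful in every KO piece and nearly absent from every KO + NM1 piece. The 8 genes took 27752, 243981 and 215927 reads in KO pieces 01, 02 and 03, which is 0.0997%, 0.920% and 0.762% of all reads. They took 30, 32, 45 and 41 reads in KO + NM1 pieces 01 to 04. In CPM the sums were 925, 8480 and 7130 in KO, with a mean of 5512 ± 4029 (SD, n = 3), against 1.09, 1.30, 2.22 and 1.69 in KO + NM1, with a mean of 1.58 ± 0.496 (SD, n = 4). Without KO + NM1 piece 01 the latter mean was 1.74 CPM. The lowest KO piece was far above the highest KO + NM1 piece, and KO piece 01 was far below the other two. In bulk tissue, fewer muscle cells and less RNA per cell cannot be told apart.

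Of the 8 genes, 7 passed the filter on low counts and Myh13 did not. Each of those 7 was higher in every KO piece than in every KO + NM1 piece, as were 30.5% of the 16887 genes tested. Since this contrast chose the genes, nothing is read from that count.

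**Figure D1:**
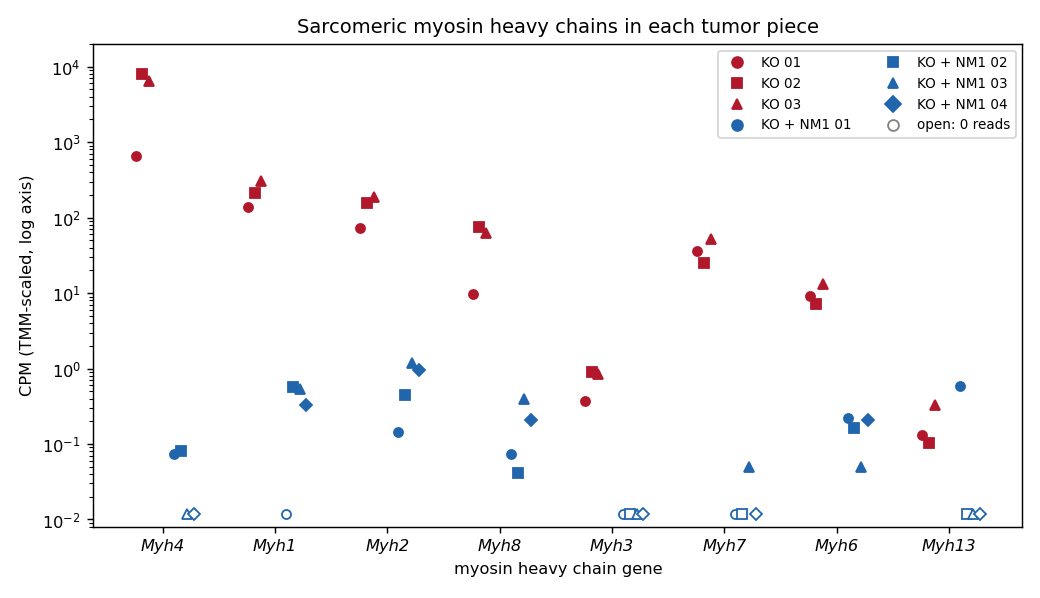
Level of each of the 8 heavy chains in each tumor piece, as CPM on a log axis, with 1 point per piece of the KO tumor and of the KO + NM1 tumor. Myh4 reaches 8006 CPM in KO piece 02, and no heavy chain passes 1.19 CPM in a KO + NM1 piece.

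The fast chains led in the KO tumor, and Myh4 stood far above the others. Myh4 had 657, 8006 and 6510 CPM in KO pieces 01 to 03 and 0.0729, 0.0814, 0 and 0 CPM in KO + NM1 pieces 01 to 04. The KO + NM1 values rest on 2, 2, 0 and 0 reads. The ratio of pooled levels was 121225, and the exact Poisson 95% limits of the KO + NM1 count gave an interval of 47346 to 444916. KO piece 01 held less than the other KO pieces, which were 12.2-fold and 9.90-fold above it.

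Myh1 had 139, 209 and 304 CPM in the KO pieces and 0, 0.570, 0.543 and 0.329 CPM in the KO + NM1 pieces. Its ratio of pooled levels was 637 (interval 454 to 926). Myh2 had 73.3, 156 and 187 CPM in KO and 0.146, 0.448, 1.19 and 0.946 CPM in KO + NM1, a ratio of 216 (interval 168 to 282). These IIx and IIa chains were both lowest in KO piece 01, but by less than Myh4, since pieces 02 and 03 were 1.50-fold and 2.19-fold above it for Myh1 and 2.13-fold and 2.55-fold above it for Myh2. The ratio of Myh4 to Myh1 CPM was accordingly 4.73, 38.3 and 21.4 in the KO pieces, while that of Myh1 to Myh2 was 1.90, 1.34 and 1.63.

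The perinatal chain was the more abundant of the developmental forms. Myh8 had 9.73, 75.4 and 62.1 CPM in the KO pieces and 0.0729, 0.0407, 0.395 and 0.206 CPM in the KO + NM1 pieces, a ratio of 294 (interval 181 to 515). Like Myh4 it was lowest in KO piece 01, with 7.75-fold and 6.38-fold more in pieces 02 and 03, and it kept to 1.48%, 0.942% and 0.954% of the Myh4 level. Myh3, the embryonic chain, had 11, 26 and 26 reads in KO, or 0.367, 0.904 and 0.859 CPM, and no read in any KO + NM1 piece. Against a floor of 3 reads over the KO + NM1 group it was at least 22.8-fold higher in KO. Myh3 stood at 3.77%, 1.20% and 1.38% of the Myh8 level.

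The slow and cardiac chains did not share the low level of KO piece 01. Myh7 had 36.1, 25.4 and 52.6 CPM in the KO pieces, and 1 read in KO + NM1 piece 03 was its sole read in that tumor. The ratio of pooled levels was 3694, with an interval of 663 to 145911 that reflects this single read. Myh6 had 9.10, 7.09 and 13.3 CPM in KO and 0.219, 0.163, 0.0494 and 0.206 CPM in KO + NM1, a ratio of 59.6 (interval 36.7 to 104). Both genes were lowest in KO piece 02 and highest in KO piece 03, and Myh6 stood at 25.2%, 27.9% and 25.3% of Myh7. The host genes of the heart-linked microRNAs are Myh6 and Myh7. Mir208a and Mir208b, counted as genes of their own, had 0 reads in every piece. They are short loci inside their host genes, so nothing on Myh6 or Myh7 is read from these zeros.

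Myh13 did not follow the others. It had 4, 3 and 10 reads in the KO pieces, or 0.133, 0.104 and 0.330 CPM, and 16, 0, 0 and 0 reads in the KO + NM1 pieces. The groups overlapped, since KO + NM1 piece 01 at 0.584 CPM was the highest of the 7 libraries. The ratio of pooled levels was 1.15 (interval 0.709 to 2.02). That interval is too narrow, since it leaves out the counting error of the few KO reads. Without KO + NM1 piece 01 no Myh13 read was left in that tumor.

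Per kilobase of exon, which allows genes to be compared, mean KO levels ran from 841 CPM per kb for Myh4 through 34.2 for Myh1, 19.4 for Myh2, 4.41 for Myh7, 4.17 for Myh8, 1.46 for Myh6 and 0.117 for Myh3 to 0.0306 for Myh13. Neighbours whose ranges over the 3 pieces overlapped were Myh1 with Myh2, Myh7 with Myh8 and Myh8 with Myh6, although Myh1 was above Myh2 in 3 of 3 pieces. The exons annotated for Myh8 sum to 11772 bases and those of Myh7 to 8616, longer than the longest protein-coding transcript of either gene. Per kilobase of that transcript the order of the middle pair turned, with 7.98 for Myh8 and 6.11 for Myh7.

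The make-up of the heavy chain pool differed between pieces of the KO tumor. Fast chains took 94.0% of heavy chain reads in KO piece 01 (exact binomial 95% interval 93.7% to 94.3%), 98.7% in piece 02 and 98.2% in piece 03, with a mean of 97.0% ± 2.58 (SD, n = 3). Within them Myh4 took 71.1%, 94.4% and 91.3%, Myh1 15.0%, 2.47% and 4.26%, and Myh2 7.92%, 1.84% and 2.62% of all heavy chain reads. Piece 01 was thus poorer in Myh4 and richer in the other fast forms.

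Slow and cardiac chains took 4.88% (interval 4.63% to 5.14%), 0.383% and 0.925% of the pool, with a mean of 2.06% ± 2.46 (SD, n = 3) that falls to 0.654% without KO piece 01. Myh7 made up 3.90%, 0.300% and 0.738% and Myh6 0.984%, 0.0836% and 0.187%. The highest slow share lay in the piece with the fewest heavy chain reads, while the Myh7 level there was between those of the other two pieces. Developmental chains held a steadier share of 1.09%, 0.900% and 0.883%, nearly all of it Myh8, with a mean of 0.958% ± 0.116 (SD, n = 3). The extraocular chain Myh13 took 0.0144%, 0.00123% and 0.00463%.

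**Figure D2:**
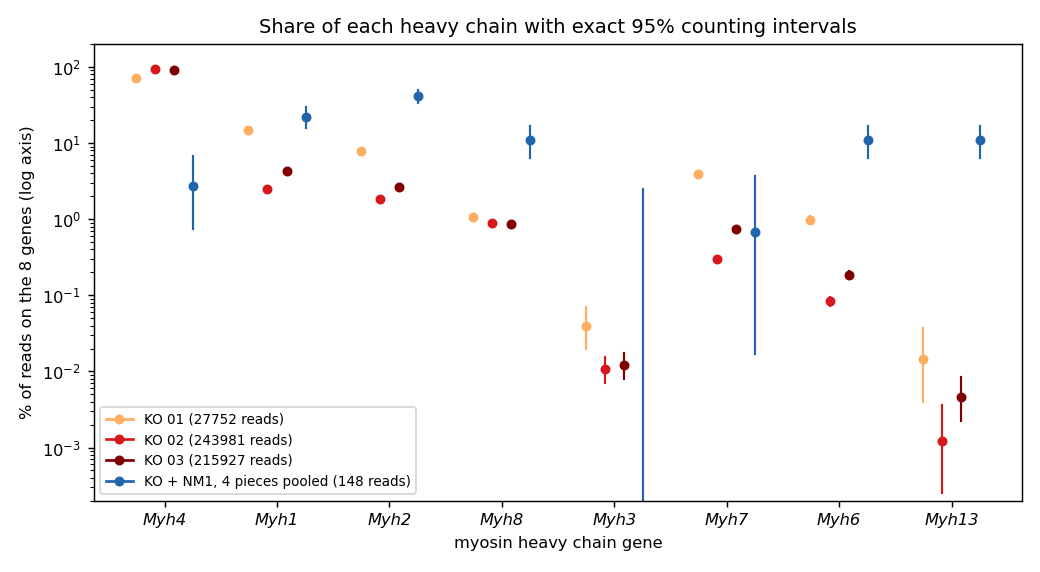
Share of each heavy chain among the reads on the 8 genes, in percent on a log axis, for each KO piece and for the 4 KO + NM1 pieces pooled, with exact 95% counting intervals. Myh4 holds 71.1% to 94.4% in the KO pieces and 2.70% in the pooled KO + NM1 reads.

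The few heavy chain reads of the KO + NM1 tumor had another make-up. Of 148 reads pooled over 4 pieces, Myh2 took 41.9% (exact binomial 95% interval 33.8% to 50.3%) and Myh1 22.3% (15.9% to 29.9%). Myh4, the leading chain of every KO piece, took 2.70% (0.741% to 6.78%). Myh6, Myh8 and Myh13 took 10.8% each, Myh7 0.676%, and Myh3 had no read, which allows a share of up to 2.46% by the same interval. Fast chains together took 66.9% (58.7% to 74.4%), and slow and cardiac chains 11.5%. These reads come from pieces that differ, with all 16 Myh13 reads in piece 01 and no Myh1 read there.

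The differences between KO pieces were set beside other sarcomere genes. As a measure of muscle RNA, 10 genes listed here as neither fast nor slow were summed. They are called isoform-neutral. Among them were Ttn, the giant spring protein of the sarcomere, Ckm, the muscle creatine kinase, and Ryr1, the calcium release channel. Actn2 was also among them, although its relative Actn3 is listed here with the genes of fast fibres. The sum was 7.22-fold and 6.40-fold higher in pieces 02 and 03 than in piece 01. The 10 genes were not uniform, since Actn2, which anchors actin at the Z-disc, was 2.33-fold and 2.24-fold higher. Ckm, known to be higher in fast fibres, was the gene most like Myh4 in its pattern across the libraries, each gene centred on its own mean. Myh8 ran close to this, Myh4 differed more between pieces, and Myh1, Myh2, Myh7 and Myh6 differed less. Per 100 CPM of the neutral genes Myh8 stood at 1.12, 1.20 and 1.12 CPM and Myh4 at 75.7, 128 and 117 CPM. On the same scale Myh1 stood at 16.0, 3.34 and 5.47 CPM, Myh2 at 8.44, 2.49 and 3.37 CPM, and Myh7 at 4.15, 0.405 and 0.948 CPM. Relative to this sum, KO piece 01 was highest in the slow, IIa and IIx chains and lowest in IIb.

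**Figure D3:**
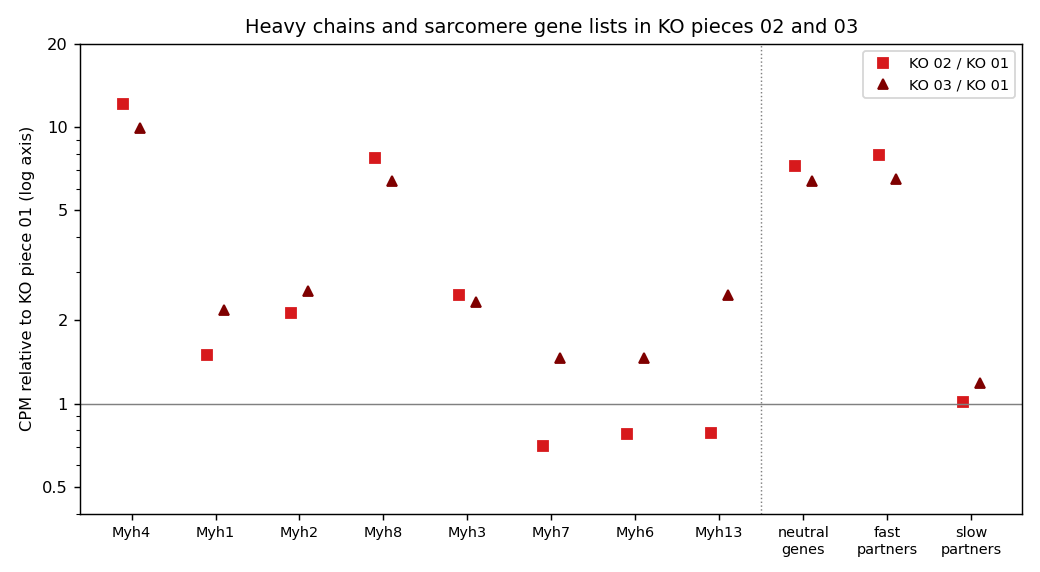
CPM of each heavy chain and of summed sarcomere gene lists in KO pieces 02 and 03 relative to KO piece 01, on a log axis. Myh4 and Myh8 lie at 6.38-fold to 12.2-fold, beside the neutral genes at 7.22-fold and 6.40-fold, and Myh6 and Myh7 lie between 0.704-fold and 1.46-fold.

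Genes that work with the fast chains were high in the KO tumor and lowest in its piece 01. Their sum was 7.93-fold and 6.48-fold higher in pieces 02 and 03 than in piece 01, close to the isoform-neutral genes and less than the 12.2-fold and 9.90-fold of Myh4. Tnnt3, the fast troponin T, had 244, 1968 and 1526 CPM in KO and 0.732 to 1.39 CPM in KO + NM1. Atp2a1, the calcium pump of fast fibres, had 404, 2989 and 2614 CPM in KO, and Mybpc2, the fast myosin-binding protein C, had 127, 1417 and 1241 CPM. Across all genes tested by the quasi-likelihood test of edgeR, 17.1% were higher in KO and 20.3% lower, where both an adjusted p below 0.05 and a 2-fold difference were required, and the median log2 fold change was near 0 (-0.0017). All 9 tested genes of the 10 fast fibre partners were higher, with a median log2 fold change of 8.53. Tnnc2, the fast troponin C, did not pass the filter and, unlike the others, was low in KO, at 0.300, 1.63 and 1.19 CPM.

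Genes that work with the slow chain were, as a sum, only slightly lower in KO piece 01. Their sum was 1.02-fold and 1.19-fold that of piece 01 in pieces 02 and 03, and the fast to slow ratio of these sums was 1.82, 14.2 and 9.91. Most of that sum came from Atp2a2, the calcium pump of slow muscle, heart and other tissues, at 327, 294 and 343 CPM, and from Tpm3, a tropomyosin also made outside muscle, at 297, 289 and 313 CPM. The genes more particular to slow fibres varied among themselves. Tnnt1, the slow troponin T, had 13.1, 13.6 and 20.4 CPM, and Myl2, the slow and ventricular regulatory light chain, had 7.90, 5.80 and 10.1 CPM in the KO pieces. Tnnc1, the slow troponin C, had 7.17, 2.88 and 7.86 CPM and was lowest in piece 02, as Myl2 and Myh7 were. Mybpc1, the slow myosin-binding protein C, was higher in pieces 02 and 03 instead, at 69.0, 132 and 160 CPM. Of the 10 slow fibre partners 7 were higher in KO and 0 lower, with a median log2 fold change of 3.85. Those not called were Atp2a2 (log2 fold change 0.86, adjusted p = 0.0147 from edgeR, under the 2-fold limit), Casq2 (0.08) and Tpm3 (0.44).

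The partners of the thick filament itself and the isoform-neutral genes were also higher in KO. Of 14 listed thick filament partners 13 were tested and 10 were higher, with a median log2 fold change of 7.45. Mylpf, the fast regulatory light chain, had 104, 729 and 578 CPM in KO and 4.45, 1.91, 1.63 and 1.36 CPM in KO + NM1 (log2 fold change 7.64, SE 0.84, adjusted p = 0.000776 from edgeR). Myl1, the fast essential light chain, was also expressed in the KO + NM1 tumor, at 6.42, 51.4, 60.1 and 36.0 CPM against 86.6, 687 and 513 CPM in KO (log2 fold change 3.48, SE 0.89, adjusted p = 0.0155 from edgeR). Partners not called were Myl4 (-0.76 log2), the atrial and embryonic light chain, Myl6b (0.45 log2) and Myom3 (-0.64 log2), and Mybphl was not tested. All 10 isoform-neutral genes were higher, with a median log2 fold change of 9.32. Ttn had 260, 1442 and 1415 CPM in KO and 14.5, 0.0814, 0.0988 and 0.411 CPM in KO + NM1, so that piece 01 of the second tumor held most of its Ttn. Over the 38 partner genes of these lists, 36 were tested, 30 were higher in KO and 0 lower, with a median log2 fold change of 8.09.

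Chaperones and ubiquitin ligases that fold or degrade myosin moved less uniformly. Of 10 such genes 8 were higher in KO and 0 lower, with a median log2 fold change of 3.73. Unc45b, the chaperone of the muscle myosin head, had 6.10, 65.4 and 51.7 CPM in KO and 20.8, 57.4, 42.9 and 39.5 CPM in KO + NM1 (log2 fold change 0.03, SE 0.71, adjusted p = 0.973 from edgeR). It was thus present in a tumor with hardly any sarcomeric heavy chain, and the groups overlapped. Its general relative Unc45a was below the 2-fold limit, with a log2 fold change of -0.40 (adjusted p = 0.0428 from edgeR). Its groups did not overlap, with 72.3 to 89.0 CPM in KO and 96.8 to 119 CPM in KO + NM1. Hsp90aa1, a heat shock protein that acts with these chaperones, had 410, 358 and 369 CPM in KO and 131, 123, 148 and 139 CPM in KO + NM1 (log2 fold change 1.48, SE 0.13, adjusted p = 0.000448 from edgeR). Unlike the heavy chains it was level across the KO pieces. Fbxo32, a ubiquitin ligase of muscle atrophy, had 31.3, 181 and 155 CPM in KO and 26.4 to 51.3 CPM in KO + NM1. It was higher by the test although KO piece 01 lay within the range of KO + NM1.

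Of 18 regulators of the heavy chain genes 16 were tested, and 6 were higher in KO and 0 lower, with a median log2 fold change of 0.44. The 6 were Myod1 and Myf6, muscle-determining factors, Six4, Eya1, Tead1 and Vgll2. Myf6 had 1.00, 35.6 and 19.2 CPM in KO and no read in KO + NM1, and it was lowest in KO piece 01, as Myh4 was. Myod1, Myog, Myf5, Myf6 and Vgll2 had no read in any KO + NM1 piece. The most abundant of the list were Tead1, a DNA-binding factor of muscle and many other tissues, with 187, 167 and 181 CPM in KO against 17.9, 43.0, 41.3 and 47.0 CPM in KO + NM1, Mef2d (90.4 to 117 against 118 to 259 CPM) and Nfix (178 to 221 against 116 to 452 CPM). Mef2d and Nfix were not called, and Mef2d was lower in every KO piece than in every KO + NM1 piece.

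Genes of immature or regenerating fibres were examined beside Myh3 and Myh8. Of 10 listed, 6 were tested and 4 were higher in KO, with a median log2 fold change of 4.09. Igfn1, a sarcomere-associated protein, had 22.6, 315 and 338 CPM, Chrna1, the acetylcholine receptor subunit, 3.70, 39.5 and 27.0 CPM, and Ncam1, a cell adhesion molecule, 9.07, 9.73 and 13.0 CPM in the KO pieces, and Cdh15 was the other called. Actc1 (-1.33 log2), the actin of heart and of developing muscle, and Tnnt2 (0.92 log2) were not called. The genes not tested were Chrng, Myog, Mymk and Mymx. Myog had 0.267, 8.97 and 4.29 CPM in the KO pieces and no read in KO + NM1. Chrng had 1, 22 and 7 reads in KO and 2, 0, 0 and 0 reads in KO + NM1. Mymk and Mymx, the fusion factors of myoblasts, stayed at or below 0.313 CPM in every KO piece.

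Heart muscle genes were examined beside Myh6 and Myh7 because both chains are also made in the heart. Of 10 listed, 6 were tested, 2 were higher and 3 lower in KO, with a median log2 fold change of -1.96. The genes not tested were Nppa, Nppb, Myl7 and Mybpc3. The defining atrial genes Nppa and Myl7 had no read in any KO piece, and Nppa had none in KO + NM1 either. Nppb had 20, 7 and 19 reads in the KO pieces and no read in KO + NM1. Mybpc3 had 7, 2 and 15 reads in KO and 41, 0, 0 and 0 reads in KO + NM1. Those higher were the transcription factors Nkx2-5, with 37.0, 35.4 and 32.8 CPM in KO and 0 to 0.493 CPM in KO + NM1, and Tbx20, with 17.3, 17.9 and 20.0 CPM in KO and 0 to 0.0494 CPM in KO + NM1. Both varied little across the KO pieces, where Myh7 ran from 25.4 to 52.6 CPM. The lower genes were Ryr2, Tbx5 and Hcn4, and Tnni3, the cardiac troponin I, was not called (6.57 to 6.97 CPM in KO, 2.42 to 8.46 CPM in KO + NM1).

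Likeness between genes was measured as the root mean square difference of log2 CPM, each gene centred on its own mean, over the 7 libraries among 14901 genes. The measure includes the difference between the tumors by which the heavy chains were chosen. Nearness therefore largely restates that difference, and it does not require the same order among the KO pieces. The genes nearest to Myh4 were Ckm (1.35), Pvalb (1.65), the parvalbumin of fast fibres, and Xirp2 (1.99), an actin-binding protein of striated muscle. Ckm had 174, 1490 and 1079 CPM in the KO pieces. Those nearest to Myh7 were Tbx20 (0.634), Igf2bp1 (0.649), an RNA-binding protein, and 1110002E22Rik (0.773). Igf2bp1 had 88.3, 63.9 and 69.5 CPM in KO and at most 0.329 CPM in KO + NM1, and was highest in KO piece 01. In contrast, 1110002E22Rik had 11.4, 51.5 and 50.2 CPM in KO and was lowest in piece 01. Those nearest to Myh3 were Reep1 (0.189), Irgm2 (0.264) and Gbp2 (0.279), and the prior count of 2 compresses the changes of a gene as low as Myh3. Myh13 was not compared, since it did not pass the filter.

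The heavy chains outside the sarcomeric set served as a contrast, since Myh9, Myh10 and Myh14 encode non-muscle myosins, Myh11 the smooth muscle chain, and Myh7b and Myh15 ancient sarcomeric relatives. Of 6 listed, 5 were tested, 1 was higher and 1 lower in KO, with a median log2 fold change of 0.45. Myh10 had 480, 386 and 403 CPM in KO and 15.7, 33.1, 33.7 and 43.7 CPM in KO + NM1 (log2 fold change 3.74, SE 0.34, adjusted p = 0.000476 from edgeR). Myh11 had 7.63, 12.3 and 9.38 CPM in KO and 123, 215, 226 and 250 CPM in KO + NM1 (log2 fold change -4.38, SE 0.34, adjusted p = 0.000302 from edgeR). Neither group of pieces overlapped the other for these genes.

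Myh9, the most abundant of the list, had 1788, 1435 and 1564 CPM in KO and 1641, 822, 727 and 906 CPM in KO + NM1 (log2 fold change 0.64, SE 0.32, adjusted p = 0.138 from edgeR). It overlapped between groups through KO + NM1 piece 01. Myh14 (-1.45 log2, SE 0.79) and Myh7b (0.45 log2, SE 0.56) also overlapped and were not called. Myh15 had 0 reads in the KO pieces and 13, 1, 1 and 0 reads in the KO + NM1 pieces, so that, like Myh13, its reads came mostly from KO + NM1 piece 01.

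**Figure D4:**
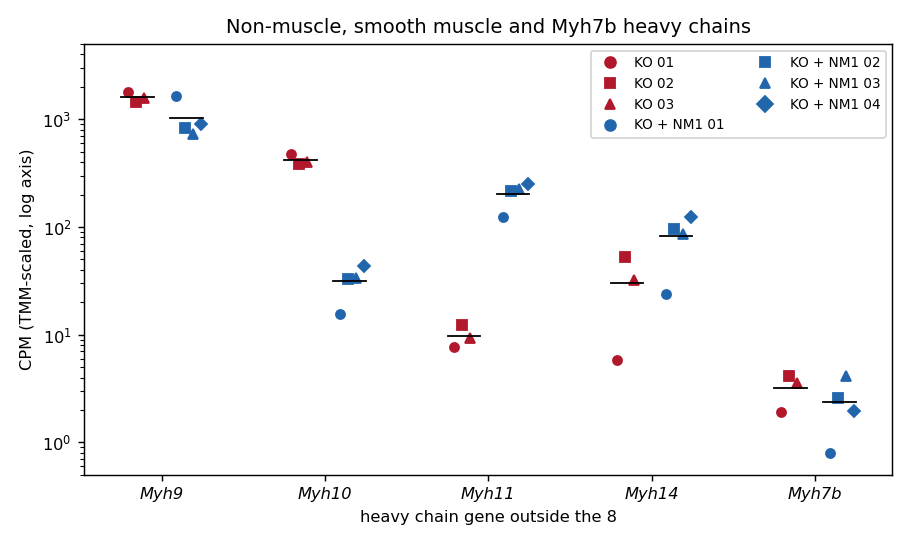
CPM on a log axis of 5 heavy chain genes outside the sarcomeric set, 1 point per piece. Myh10 is at 386 to 480 CPM in KO and at most 43.7 CPM in KO + NM1, and Myh11 is at 123 CPM or more in KO + NM1 and at most 12.3 CPM in KO.

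Markers of other cell types were set beside these levels, and their part in the heavy chain difference was not tested. Smooth muscle markers summed to 109 to 122 CPM in KO and 603 to 1288 CPM in KO + NM1, and of 7 tested 6 were lower in KO, led by Acta2, Tagln and Myh11, while Smtn was not called (-0.74 log2). All 10 white adipocyte markers were lower in KO, with sums of 118 to 310 CPM against 4770 to 34996 CPM. They were led by Fabp4, Cfd and Pnpla2, and Fabp4, the fatty acid carrier of adipocytes, stood at 20.0, 68.7 and 37.1 CPM in the KO pieces. Of 10 fibroblast markers 5 were lower and 0 higher in KO, with sums of 7502 to 13445 CPM against 3132 to 14151 CPM. Col1a1, Col1a2 and Col3a1, the fibrillar collagens, led the list and were not called. Col1a1 had 3823, 3441 and 5827 CPM in KO and 589 to 2331 CPM in KO + NM1 (log2 fold change 1.42, adjusted p = 0.0514 from edgeR). It was thus higher in every KO piece than in every KO + NM1 piece, against the direction of the markers called.

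Because heavy chain genes resemble each other, reads can be lost or moved between them. Of windows of 75 bases in the transcripts, 15.8% of those of Myh1 stood without a mismatch in another of the 8 genes, as did 13.9% for Myh2, 13.7% for Myh6, 10.6% for Myh7, 9.68% for Myh4, 6.63% for Myh8, 5.01% for Myh13 and 1.84% for Myh3. Allowing 2 mismatches, the share was 42.1% for Myh1, 30.7% for Myh4 and 16.2% for Myh8. Of the Myh4 windows 4.38% stood exactly in Myh8 and 4.90% in Myh1, so the levels of Myh8 and Myh1 are uncertain where Myh4 is many times higher. How shared reads were counted is not given in the sources used here. Antisense genes overlap Myh1 (Myhas), Myh2 (9430073C21Rik) and Myh7 (Mhrt), and they had at most 11 reads in a piece. The strand option of the counting is not given, so reads of a gene and its antisense partner cannot be told apart.

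**Figure D5:**
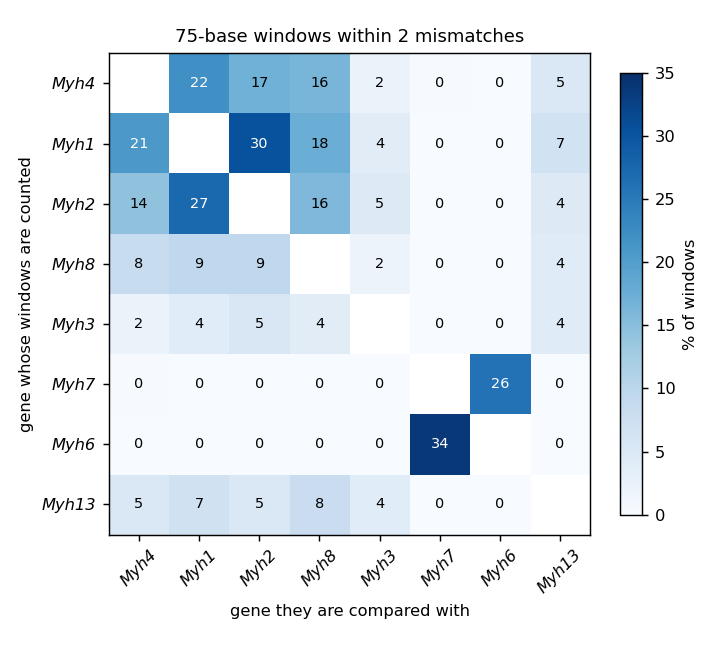
Share of the 75-base windows of each heavy chain transcript set that stood in another heavy chain within 2 mismatches, as a color scale in percent with rows for the gene counted and columns for the gene compared. The highest values join Myh6 with Myh7 (33.8%) and Myh1 with Myh2 (30.5%).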

How the data were processed

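RNA-seq of 3 KO and 4 KO + NM1 tumor pieces was analysed, with groups taken from the labels. According to the methods and the submitters' processing notes, the authors trimmed reads with Trimmomatic 0.36, examined them with FastQC, aligned them to GRCm38 (mm10) with HISAT2 2.0.4, sorted with SAMtools 0.1.19 and ran HTSeq-count to count reads on genes. The deposited values are raw read counts per Ensembl gene, without normalization. The annotation release and strand option are not given in the sources used here. Symbols came from GENCODE M21 for 46005 of 46603 genes, and the heavy chains, gene lists and tests were chosen with earlier results of these data known.

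Low counts were removed with filterByExpr (minimum count 10) of edgeR 4.0.16 in R 4.3.3, libraries were scaled by TMM, and KO was tested against KO + NM1 with the quasi-likelihood test and Benjamini-Hochberg adjustment. Calls needed an adjusted p below 0.05 together with an absolute log2 fold change of 1 or more. The SE is the size of the log2 fold change divided by the square root of F. Log2 CPM for likeness used a prior count of 2. Intervals of ratios used the exact Poisson 95% limits of the KO + NM1 count, with the KO count held fixed. Binomial intervals of shares were exact at 95%. Named genes were the 8 heavy chains, the 3 most abundant genes of each list, the exceptions to a statement on a list where 5 or fewer, and the 3 genes most like Myh4, Myh7 and Myh3. Other genes named, such as Tnnt1, Tnnc1, Myl2, Actn2, Myf6, Mymk, Mymx, Actc1 and Tnnt2, were chosen after their values were seen. Alternatives were DESeq2 1.42.0 (size factors and Wald test), library size alone, upper-quartile scaling, no filter but 1 count, the adjusted p alone, a replicate block, each library left out, and shares per kilobase. The procedure was tested on simulated data for KO against KO + NM1, with 200 genes changed and 16560 genes left after its filter. Of the changed genes left after that filter it called 66.2%, and 1.50% of calls fell on unchanged genes. Part of the changes were exactly 2-fold, the limit of a call, so the rate does not describe larger folds alone. Library pairs of one tumor differed with a chi-square per degree of freedom of 35.2 to 687, so none was a repeat. RefSeq promoter windows of the 8 genes came from the reference table, and protein sequences were not used here.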

Additional observations from a re-analysis of the deposited data

Results flagged for a closer look

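Dixon's test was applied to 20 values over the 4 KO + NM1 pieces, and 5 had a gap to range ratio above its 95% critical value of 0.829, where chance gives about 1 in 20. Myh7 had a ratio of 1, from the single read in piece 03 (0.0494 CPM against 0 in the others). Myh13 also had a ratio of 1, from the 16 reads in piece 01 (0.584 CPM against 0). With 3 of 4 pieces at 0 the ratio is 1 whatever the fourth value, so these flags rest on the zeros and say nothing beyond the read counts. The other three set piece 01 apart as well. For the slow fibre partners the ratio was 0.832, with the sum of piece 01 the highest at 539 CPM and the lowest piece at 341 CPM. Tpm3, also made outside muscle, held 414 CPM of the sum in piece 01, against 145 to 165 CPM in the other pieces. Atp2a2 was lowest in piece 01, at 120 CPM against 171 to 209 CPM. The high sum thus follows Tpm3 and does not describe the slow fibre genes as a set. For the isoform-neutral sarcomere genes it was 0.865, with 23.5 CPM in piece 01 and 8.60 CPM in the lowest piece. For the myosin assembly and turnover genes it was 0.898, with piece 01 the lowest at 309 CPM and the highest piece at 352 CPM. Groups of 3 pieces, such as KO, were not tested.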

How the results depend on the processing

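Of 83 alternative values 3 moved by more than the spread between pieces or, for counts, by over 1.5 times. With no fold limit 4345 genes were higher in KO against 2882 with the 2-fold limit. The developmental share fell from 0.958% to 0.511% per kilobase of exon and to 0.482% per kilobase of exon sequence held by no other of the 8 genes. The latter changes only the length and still uses all counted reads of a gene, so it does not set apart reads from shared sequence. Per kilobase of the longest protein-coding transcript, an alternative chosen after seeing the data, the share was 0.94%. The long annotated exons of Myh8 set this gap. With a replicate block, fitted although same-numbered pieces share only a number (correlations of their deviations 0.0802, 0.102 and -0.0165), 2437 genes were higher, 2493 lower and 27 of the sarcomere partners higher. Leaving out each piece gave 2174 to 3603 higher, 2811 to 4172 lower and 27 to 30 partners higher. The slow and cardiac share, 2.06% in all, ranged from 0.654% (without KO piece 01) to 2.90%, and that of Myh13, 0.00676% in all, from 0.00293% (without KO piece 01) to 0.00952%, both within an SD larger than the mean. The summed level of the 8 genes in KO ranged from 4028 to 7805 CPM. Depth limits Myh3, Myh13 and all KO + NM1 levels, which rest on few reads.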
